A study of Mus musculus with 6 samples.

Results

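Kdr, Tie1 and Clec14a, 3 genes used as markers of endothelium in most vessel beds, were followed in mouse hematopoietic tissue by subcellular spatial transcriptomics. They were taken by name, and the feature lists of all 6 sections held all 3 of them, on a smaller probe panel (233 genes that both panels share and 244 of its own) and among 5050 genes on a larger one. The study asked how erythroid niches are built in fetal liver, bone marrow and spleen. Each condition was measured in 1 section of 5 µm, so no difference between sections below has a replicate check and no test was run. The intervals given are exact 95% intervals (Poisson for counts and their ratios, Clopper-Pearson for shares of cells) and cover counting error only.

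All sections came from wild-type C57BL/6 mice. The E14.5 fetal liver, the bone marrow of a femur at postnatal day 8 (P8), an adult untreated spleen (NC spleen) and the spleen after phenylhydrazine (PHZ spleen) were measured on the smaller panel. The E13.5 fetal liver and the bone marrow of an 89-week-old mouse were measured on the larger panel. Phenylhydrazine, an agent that lyses red cells, had been injected intraperitoneally at 40 mg/kg, with 2 injections per day for 2 days, and the mice of both spleens were 2 months old by the figure legends, although 1 methods text gives 3 months for untreated mice. The assay, Xenium, decodes single transcripts in place and assigns them to segmented cells. Each of the 3 genes was read by 8 probe sets on the smaller and by 2 on the larger panel, and the panels also differed in run, chemistry and segmentation. Levels are therefore compared only within a panel and only within a gene. Ratios of 1 gene to another and sums over the 3 genes are likewise compared only between sections of one panel. Where values of both panels stand in one sentence, they are not compared across panels.

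Endothelial cells line vessels and sinusoids and share a set of surface receptors. Kdr encodes the main signaling receptor for vascular endothelial growth factor (VEGF). Tie1 encodes a receptor tyrosine kinase without a clear ligand of its own that pairs with Tek (Tie2), the receptor of the angiopoietins. Clec14a encodes a membrane lectin of the family that also holds Cd93, Thbd and Cd248, and binds the vessel matrix protein Mmrn2. Endothelium is known to use all 3, while megakaryocytes and blood progenitors are known to carry Tie-family receptors as well.

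For each gene, the 250 bases before the 1 start listed in the promoter table are shown because the ETS factors, which drive much of the endothelial program, bind a GGAA core. Sequences are those of RefSeq on GRCm38.p6, in which 3 of 3 genes were found by symbol, and are written 5′ to 3′ on the strand of the gene, with every GGAA and every TTCC (the same core on the other strand) in capitals. All 3 genes lie on the minus strand. The Kdr window is chr5:75978456-75978705, which lies inside the annotated gene span (chr5:75932827-75979072), so the listed Kdr start is not the 5′ end of that span. The Tie1 window is chr4:118489850-118490099, next to the gene span (chr4:118471191-118489849). The Clec14a window is chr12:58269259-58269508, next to the gene span (chr12:58264720-58269258).
Kdr: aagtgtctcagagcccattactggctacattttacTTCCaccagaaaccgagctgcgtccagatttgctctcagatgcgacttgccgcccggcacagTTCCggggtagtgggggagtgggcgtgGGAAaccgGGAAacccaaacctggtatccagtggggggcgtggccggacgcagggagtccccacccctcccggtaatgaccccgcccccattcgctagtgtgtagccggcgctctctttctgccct
Tie1: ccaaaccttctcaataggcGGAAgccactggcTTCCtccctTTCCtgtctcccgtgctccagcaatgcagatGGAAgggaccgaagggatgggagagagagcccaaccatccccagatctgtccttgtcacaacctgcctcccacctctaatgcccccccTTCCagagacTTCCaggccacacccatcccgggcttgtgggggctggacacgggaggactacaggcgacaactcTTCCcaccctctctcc
Clec14a: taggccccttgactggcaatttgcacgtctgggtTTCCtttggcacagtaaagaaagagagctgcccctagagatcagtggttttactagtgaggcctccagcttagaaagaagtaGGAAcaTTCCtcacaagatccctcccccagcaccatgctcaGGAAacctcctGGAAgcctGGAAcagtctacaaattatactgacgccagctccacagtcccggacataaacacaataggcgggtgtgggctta
The Kdr window held 4 cores, the Tie1 window 7 and the Clec14a window 6. Of the 32851 promoter windows of this length in the RefSeq table, 93.4% held at least 1 core and the median was 3. At least as many cores as in Kdr were found in 33.4% of all windows, as in Tie1 in 3.82% and as in Clec14a in 8.69%. The GC content was 61.6% in the Kdr, 60.4% in the Tie1 and 50.8% in the Clec14a window, against a median of 52.4%. A match of these letters is a description and not a binding site, and the files hold no measurement of factor binding.

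The sections held between 5285 cells (E13.5 fetal liver) and 143810 cells (89-week bone marrow), with a median between 60 (89-week bone marrow) and 190 (E13.5 fetal liver) gene transcripts per cell. In the P8 bone marrow section, 15.3% of cells held at least 3 counts of cartilage genes and 7.35% at least 3 of skeletal muscle genes. Section-wide values named P8 bone marrow therefore cover more than marrow. The most frequent negative control probe reached between 1 and 105 counts per section, below the least frequent of the 3 genes in each section. Between 0 and 6 cell identifiers were shared by any 2 sections of a panel, none with the same counts. The label of the E13.5 fetal liver was checked by the liver protein gene Afp, which was chosen after its values were seen and was detected in 58.7% of cells, since the only hepatocyte gene of the fixed list on the larger panel, Hrg, had 4 counts.

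On the CPM scale, Kdr was read at similar levels in the E14.5 fetal liver, the P8 bone marrow and the NC spleen and at a lower level in the PHZ spleen. Its level was 1726 counts per 1000000 gene transcripts (CPM; 1708 to 1744) in the E14.5 fetal liver, 1727 CPM (1695 to 1759) in P8 bone marrow, 1660 CPM (1635 to 1685) in the NC spleen and 684 CPM (669 to 699) in the PHZ spleen. The intervals of the first 2 sections overlapped. Tie1 was highest in the fetal liver of these 4 sections, with 1517 CPM in the E14.5 fetal liver, 1399 in P8 bone marrow, 1338 in the NC spleen and 942 (924 to 960) in the PHZ spleen. Clec14a fell off more steeply in the same order as Tie1, from 1123 CPM in the E14.5 fetal liver to 693 in the P8 bone marrow, 489 in the NC spleen and 134 (128 to 141) in the PHZ spleen. The intervals of Tie1 and of Clec14a did not overlap between any 2 of these sections. The order depended on the scale. Per mm² of tissue, Kdr had 4808 counts at E14.5, 3677 in the NC spleen, 1524 in the P8 bone marrow and 1108 in the PHZ spleen, and Tie1 had 4226, 2963, 1235 and 1526, so that the P8 bone marrow was below the PHZ spleen for Tie1. Per 100 cells, Kdr had 30.8, 15.9, 21.2 and 8.27 counts in these sections. In a sum over a section, fewer cells of a type and less RNA per cell cannot be told apart.

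On the larger panel all 3 genes were higher in the E13.5 fetal liver than in the 89-week bone marrow, by intervals that did not overlap, as were 31.7% of all 5050 genes, while 29.2% were lower. Kdr had 376 CPM (344 to 409) in the E13.5 fetal liver and 115 CPM (109 to 121) in the 89-week bone marrow. Tie1 had 222 CPM (198 to 248) against 56.8 CPM (52.8 to 61.1), and Clec14a 334 CPM (305 to 366) against 55.4 CPM (51.4 to 59.6). These values rest on 520, 307 and 463 counts in the E13.5 fetal liver, the smallest section, and on 1500, 742 and 723 counts in the 89-week bone marrow. These sections also differed in organ, age, depth and preparation of the tissue.

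The balance between the 3 genes differed between the sections of one panel. For every 100 Kdr counts there were 87.9 Tie1 counts in the E14.5 fetal liver, 81.0 in P8 bone marrow and 80.6 in the NC spleen, but 138 (134 to 142) in the PHZ spleen. The number of Clec14a counts per 100 Kdr counts was 65.0, 40.1, 29.5 and 19.6 in the same order. The PHZ spleen thus stood apart from the other 3 sections of the smaller panel in the balance of Tie1 to Kdr, and had the smallest Clec14a count for its Kdr among them. With transcripts of a quality score of at least 30 alone, the 2 spleens kept this order of Tie1 to Kdr at a smaller gap. The NC spleen then had 11259 Tie1 and 12813 Kdr counts, and the PHZ spleen 7744 and 6644. The values of the P8 bone marrow mix marrow with other tissue of the section, and its balance of Tie1 to Kdr differed from place to place, as given below.

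Positive cells, that is, cells with at least 1 count of a gene, were sparse and mostly held a single count. Kdr was detected in 14.5% of cells of the E14.5 fetal liver, 12.0% of the P8 bone marrow, 8.89% of the NC spleen and 5.85% of the PHZ spleen. Tie1 was detected in 13.3%, 10.3%, 7.51% and 6.71%, and Clec14a in 10.97%, 6.13%, 3.50% and 1.40% of cells of these sections. On the larger panel, Kdr, Tie1 and Clec14a were detected in 6.36%, 4.43% and 5.92% of cells of the E13.5 fetal liver and in 0.911%, 0.492% and 0.467% of cells of the 89-week bone marrow. Between 59.3% (Kdr in the E14.5 fetal liver) and 95.05% (Tie1 in the 89-week bone marrow) of positive cells held 1 count, and the most in a cell was 24, of Kdr in the E14.5 fetal liver.

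Because depth per cell differed, each cell was also thinned at random to 50 gene transcripts, leaving out shallower cells. This kept 84.4% of cells of each spleen, 85.6% of the P8 and 57.4% of the 89-week bone marrow, and 98.1% of the E14.5 and 92.1% of the E13.5 fetal liver. At this even depth Kdr was detected in 6.83% of cells of the P8 bone marrow, 6.37% of the E14.5 fetal liver, 5.71% of the NC spleen and 3.03% of the PHZ spleen, so the P8 bone marrow and the fetal liver changed places. Tie1 was detected in 5.57%, 5.82%, 4.88% and 3.82% and Clec14a in 3.17%, 4.63%, 1.99% and 0.649% of the same sections. The larger panel gave 2.06%, 1.05% and 1.69% in the E13.5 fetal liver and 0.584%, 0.267% and 0.299% in the 89-week bone marrow for Kdr, Tie1 and Clec14a.

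Cells that should lack these genes show how much of a share can be background. In the NC spleen, cells with at least 3 counts of T cell genes (Cd3d, Cd3e, Cd4, Cd8a) and outside the endothelial gate defined below were Kdr-positive in 2.90%, Tie1-positive in 1.76% and Clec14a-positive in 1.14%, at a median of 90 transcripts against 84 over the section. In the PHZ spleen the same class had 2.68%, 1.88% and 1.06%, at 86 against 104 transcripts. In the P8 bone marrow, cells with cartilage genes outside the gate had 2.38%, 2.42% and 3.44%, at 84 against 109 transcripts. The section-wide shares of these 3 sections lay above those of the class, at full depth and with both thinned. The gap was narrow for Clec14a in the PHZ spleen, at 1.40% against 1.06% and, thinned, 0.649% against 0.527%. In the NC spleen the T cell class lies where the genes are sparse, so it can understate background elsewhere. Kdr had 5.63 counts per 100 cells in squares richest in T cell genes and 23.0 in the poorest. In the PHZ spleen Clec14a had 2.41 counts per 100 cells in the richest squares and 1.13 in the poorest. The T cell class can therefore overstate the background of Clec14a in that section.

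In the remaining sections the class was cells with neutrophil genes outside the gate. The list includes Elane, Mpo and Ctsg, which granulocyte progenitors use, so blood progenitors can be among these cells. Their part was not tested, and the shares of this class are given for all 3 genes without being taken as background. The share was 4.49%, 10.1% and 2.82% for Kdr, Tie1 and Clec14a in the E14.5 fetal liver, at 187 against 167 transcripts. In the E13.5 fetal liver it was 3.67%, 0.917% and 1.83%, at 341 against 190 transcripts, from 109 cells. In the 89-week bone marrow it was 0.402%, 0.613% and 0.197%, at 120 against 60 transcripts. The share of Tie1-positive cells over the whole 89-week bone marrow was below that of this class at full depth, 0.492% against 0.613%, and above it after thinning, 0.267% against 0.143%.

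**Figure D1:**
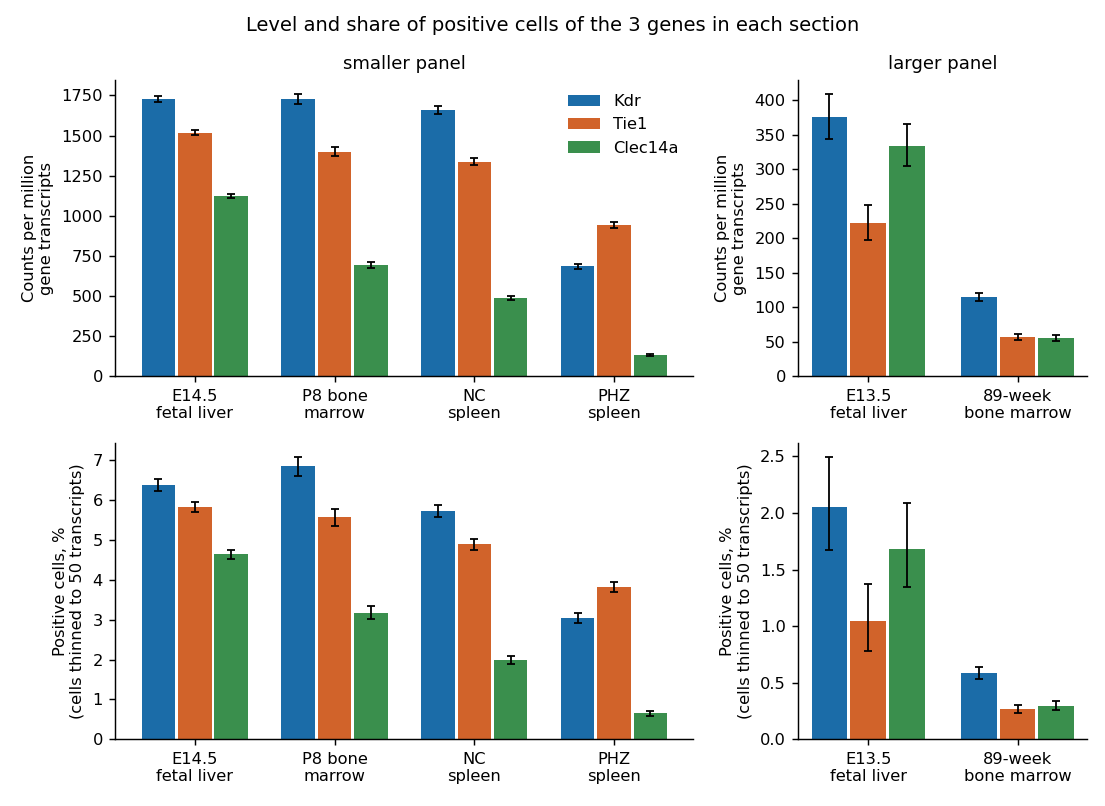
Level of Kdr, Tie1 and Clec14a in CPM (top) and share of positive cells after thinning each cell to 50 transcripts (bottom), per section, with exact 95% intervals of counting error, the 2 panels on axes of their own. All 3 genes are lowest in the PHZ spleen among the sections of the smaller panel (Kdr 684, Tie1 942 and Clec14a 134 CPM) and lower in the 89-week bone marrow than in the E13.5 fetal liver on the larger one.

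The 3 genes were found in the same cells far more often than in cells at large. In the NC spleen thinned to even depth, 27.5% of Kdr-positive cells held Tie1, against 3.51% of Kdr-negative cells, and 10.6% held Clec14a, against 1.46%. In the PHZ spleen 26.3% of Kdr-positive cells held Tie1, against 3.11%, and 3.76% held Clec14a, against 0.552%. In the E14.5 fetal liver the shares with Tie1 were 33.2% and 3.96%, and in the P8 bone marrow 25.7% and 4.09%. The sharing was thus several-fold in each section, and the share of Clec14a in Kdr-positive cells followed the level of Clec14a.

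The same order held in the sections with few positive cells. In the E13.5 fetal liver 9 of 100 thinned Kdr-positive cells held Tie1 (4.20 to 16.4%), against 0.881% of Kdr-negative cells. In the 89-week bone marrow 12 of 482 did (2.49%, 1.29 to 4.31%), against 0.254%. Without thinning, the share of Kdr-positive cells that held Tie1, Clec14a or both was read for each panel. On the smaller panel it was 46.9% in the NC and 42.3% in the PHZ spleen, 52.8% in the P8 bone marrow and 60.5% in the E14.5 fetal liver. On the larger panel it was 50.9% in the E13.5 fetal liver and 14.4% in the 89-week bone marrow.

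**Figure D2:**
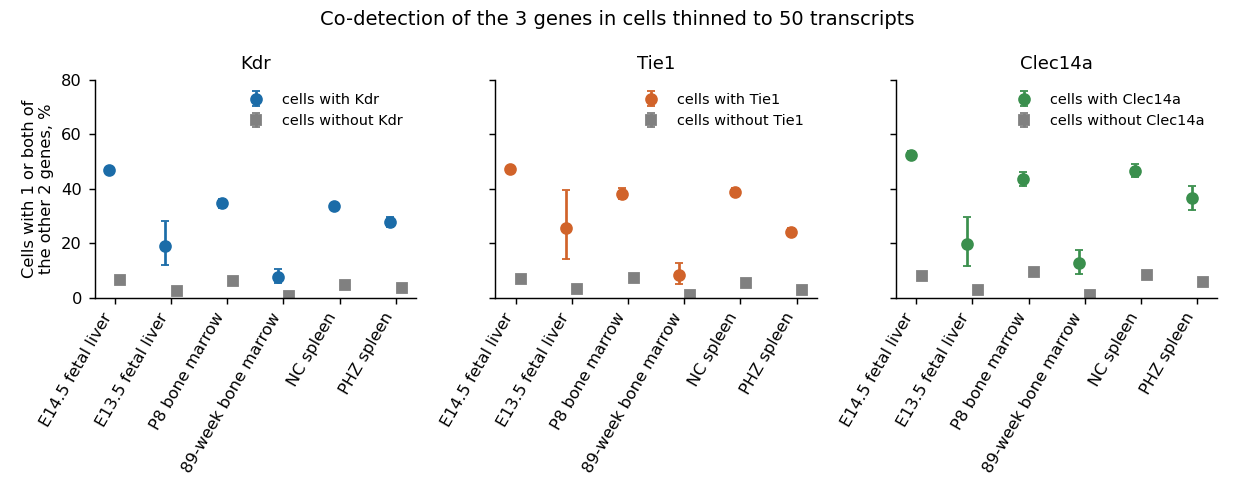
Share of cells that hold 1 or both of the other 2 genes, in cells with (colored) and without (gray) the gene named above each panel, for the 6 sections after thinning each cell to 50 transcripts, with exact 95% intervals of counting error. In every section the share is higher in positive than in negative cells, for Kdr in the NC spleen 33.6% against 4.64%.

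Cells with 2 or 3 of the genes varied in density between the sections. They numbered 1070 per mm² in the NC and 362 in the PHZ spleen, 502 in the P8 bone marrow and 1558 in the E14.5 fetal liver, and on the larger panel 402 in the E13.5 fetal liver and 31.2 in the 89-week bone marrow. Cells of any kind also varied, at 23186, 13406, 7197, 15597, 10414 and 20774 per mm² in the same order. The median distance from a cell with 2 or 3 of the genes to the next one was 7.58 µm in the NC spleen and 14.8 µm in the PHZ spleen, and 65.4 µm in the 89-week bone marrow. Between cells of any kind it was 5.03, 5.96 and 4.55 µm. Cells with 2 or 3 of the genes were also larger than cells with none of the genes. In the PHZ spleen their median area was 106 µm² against 50.3 µm², and in the NC spleen 45.2 µm² against 34.7 µm². Their median depth was higher as well, at 149 against 100 transcripts in the PHZ spleen and 126 against 80 in the NC spleen. The part of cell size and depth in these counts was not tested.

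The gene whose pattern over cells was most like that of each of the 3 was Gpihbp1, which encodes the capillary protein that anchors lipoprotein lipase. Likeness was the ratio of the share of thinned cells with a gene among member-positive cells to that among member-negative cells, as a geometric mean over the 4 sections of the smaller panel and over 188 genes seen in at least 0.5% of thinned cells of each. The ratio of Gpihbp1 was 10.1 for Kdr, 8.11 for Tie1 and 7.70 for Clec14a. The other two of the 3 genes followed at ranks 2 and 3 for each, with 7.69 (Tie1) and 7.38 (Clec14a) for Kdr, 7.80 (Clec14a) and 7.49 (Kdr) for Tie1, and 6.65 (Tie1) and 6.24 (Kdr) for Clec14a. Plvap, which encodes the diaphragm protein of fenestrated endothelium, held rank 4 for all 3, at 5.17, 5.98 and 4.77 for Kdr, Tie1 and Clec14a. These cells share their section and library, so the ratios are a description.

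On the larger panel, which holds more endothelial genes, the nearest gene to both Tie1 (ratio 9.44) and Clec14a (12.0) was Kdr. Of the genes ranked for Kdr, the nearest were Flt4, the receptor of lymphatic and sinusoidal endothelium (9.82), Plvap (9.59) and Pecam1, an endothelial adhesion molecule (9.53). Tie1 and Clec14a were not ranked, as both were in under 0.5% of thinned cells of the 89-week bone marrow. Their own ratios for Kdr in the E13.5 fetal liver and the 89-week bone marrow were 10.2 and 9.82 (Tie1) and 8.17 and 19.2 (Clec14a). Tie1 was next to the adhesion receptor Adgrf5 (8.36) and the endothelial matrix gene Egfl7 (8.34), and Clec14a to Flt4 (10.05) and Plvap (9.44). These ratios rest on few cells, with 51 thinned Tie1-positive cells in the E13.5 fetal liver.

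Transcripts of the 3 genes also lay close to one another when the cell outlines were left out. Of their transcripts, 75.7% in the NC spleen, 48.5% in the PHZ spleen, 69.9% in the P8 bone marrow and 83.9% in the E14.5 fetal liver had a transcript of a different one of the 3 genes within 5 µm. Transcripts of the same gene were not counted. Transcripts of all other genes had a transcript of any of the 3 genes within 5 µm in 25.2%, 12.5%, 23.7% and 30.9%, a target that holds 1 gene more. Among up to 471 genes ranked by their share near Kdr, Tie1 came 5, 4, 3 and 6 in these sections and Clec14a 9, 5, 4 and 3. Gpihbp1 held rank 1 in all 4, with 84.2%, 53.4%, 67.2% and 81.3% of its transcripts within 5 µm of Kdr.

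An endothelial gate that does not use the 3 genes was set as at least 2 of Plvap, Gpihbp1, Calcrl (a receptor subunit for adrenomedullin), Cav1 (the main coat protein of caveolae), Sox17 (an arterial transcription factor) and Tmem100. It held 8133 cells (6.93%) of the E14.5 fetal liver, 4496 (8.55%) of the P8 bone marrow, 14365 (13.3%) of the NC spleen and 7450 (7.88%) of the PHZ spleen. Within it Kdr was detected in 58.0%, 53.2%, 40.0% and 33.4% of cells, Tie1 in 56.1%, 50.04%, 39.2% and 43.7%, and Clec14a in 50.2%, 27.5%, 16.6% and 9.37%. The median depth of gate cells was 202, 162.5, 111 and 149 transcripts. Each of the 3 genes was several-fold more frequent in the gate than in the T cell and cartilage classes above.

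The gate did not hold all cells with the genes. It contained 83.7% of the cells with 2 or 3 of the genes in the NC spleen and 73.9% in the PHZ spleen, but 54.0% in the P8 bone marrow and 38.5% in the E14.5 fetal liver. There, the classes outside the gate overlapped widely, with 92.5% of all cells in the erythroid and 56.3% in the hepatocyte class. Kdr, Tie1 and Clec14a were detected in 11.2%, 10.1% and 8.06% of the erythroid class, in 10.3%, 9.32% and 7.35% of the hepatocyte class and in 18.1%, 16.2% and 13.9% of the stromal class, at medians of 166, 185 and 176 transcripts. Only 4 of the 6 gate genes are on the larger panel, where the gate held 96 cells in the E13.5 fetal liver, 57.3% of them with Kdr, 39.6% with Tie1 and 46.9% with Clec14a. In the 89-week bone marrow it held 168 cells, with 25.6%, 9.52% and 14.9%.

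Outside the gate, Tie1 and Kdr were more frequent in cells with many transcripts of Pf4 and Ppbp, 2 chemokine genes of megakaryocytes and platelets, in all sections but the E13.5 fetal liver, although the intervals of Kdr overlapped in the 89-week bone marrow. The E13.5 fetal liver had 27 cells with at least 10 of these transcripts, of which 0 held Kdr (0 to 12.8%), 1 held Tie1 and 0 held Clec14a, against 1.71%, 0.856% and 1.56% of its cells without them, which is too few to give a direction. In the thinned E14.5 fetal liver, Tie1 was detected in 3.45% of 87151 cells without these transcripts and in 23.5% (21.4 to 25.6%) of 1564 cells with at least 10. Kdr went from 4.11% to 11.4% (9.91 to 13.1%), and Clec14a from 2.99% to 1.79% (1.19 to 2.58%). Clec14a thus ran the other way in the same cells, with intervals that did not overlap.

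The P8 bone marrow and both spleens gave the same order for Tie1 and Kdr. In the P8 bone marrow Tie1 went from 2.95% to 14.8% and Kdr from 4.29% to 8.15%, with Clec14a at 2.16% and 1.75%. In the NC spleen Tie1 went from 1.26% to 8.72% and Kdr from 2.14% to 8.72%, and in the PHZ spleen from 1.45% to 5.98% and from 1.54% to 5.29%. Clec14a was 0.859% and 0.484% in the NC spleen and 0.306% and 0.690% in the PHZ spleen, where the upper class had 2 and 3 positive cells and the intervals overlapped.

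In the 89-week bone marrow Tie1 went from 0.214% to 1.13% (0.748 to 1.64%), Kdr from 0.533% to 0.797% (0.480 to 1.24%) and Clec14a from 0.303% (0.264 to 0.346%) to 0.0839% (0.0102 to 0.303%, from 2 cells). The intervals did not overlap for Tie1 and overlapped for Kdr and Clec14a. Without thinning, cells with at least 3 counts of Pf4 and Ppbp together were 3.90% of this section. At that full depth they held 29.3% of its Tie1-positive, 13.97% of its Kdr-positive and 5.36% of its Clec14a-positive cells. These shares are not set beside the thinned values. Thinned and outside the gate, Clec14a was detected in 0.0749% (0.00907 to 0.270%, from 2 cells) of cells with 3 to 9 of these counts. Cells rich in these transcripts were also deeper before thinning, with a median of 228 against 163 transcripts in the E14.5 fetal liver and 221 against 102 in the 89-week bone marrow. The part of neighboring endothelium and of depth in this order was not tested.

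**Figure D3:**
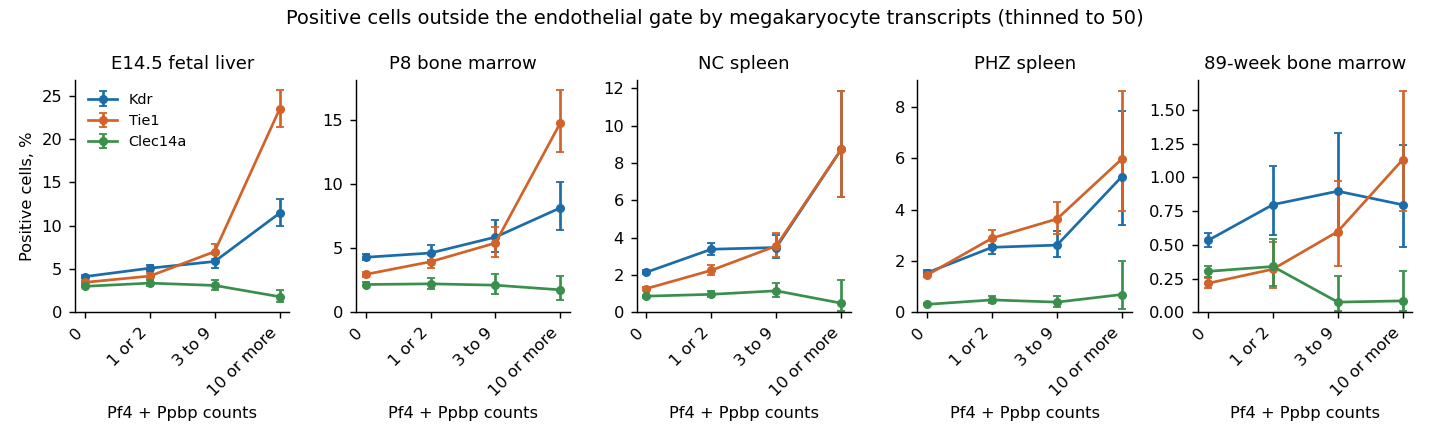
Share of cells positive for Kdr, Tie1 and Clec14a outside the endothelial gate, after thinning to 50 transcripts, against the summed Pf4 and Ppbp counts of the cell, for 5 sections (the y axes differ; the E13.5 fetal liver, with 27 cells in the top class, is not drawn), with exact 95% intervals of counting error. Tie1 is higher in the class with 10 or more counts in each panel (23.5% against 3.45% in the E14.5 fetal liver), while Clec14a stays low.

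The comparison of the PHZ spleen with the NC spleen asked how stress erythropoiesis after red cell lysis changes the tissue. Kdr went from 17183 counts (1660 CPM) in the NC spleen to 7820 counts (684 CPM) in the PHZ spleen, a ratio of 0.412 (0.401 to 0.423). Tie1 went from 13846 counts (1338 CPM) to 10767 counts (942 CPM), a ratio of 0.704 (0.687 to 0.722). Clec14a went from 5063 counts (489 CPM) to 1536 counts (134 CPM), a ratio of 0.275 (0.259 to 0.291). All 3 genes were lower in the PHZ spleen, Clec14a by 3.64-fold, Kdr by 2.43-fold and Tie1 by 1.42-fold, and the 3 intervals did not overlap.

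A difference of at least 1.5-fold, with at least 100 counts over both spleens, was taken as a call, and 2 of the 3 genes, Kdr and Clec14a, were lower by that rule. Of all 472 genes with enough counts, 41.5% were called lower and 16.5% higher on the CPM scale, and 29.7% lower and 20.6% higher per cell. On the CPM scale the median gene had a log2 ratio of -0.45, so that Tie1, at -0.51, lay near the middle (rank 223 from the lowest), while Kdr at -1.28 held rank 102 and Clec14a at -1.86 rank 49. The place of Tie1 depended on the quality score of transcripts. At a score of at least 30 it was -0.62 beside a median of -0.33, held rank 172 of 469 and was called lower. The 10 erythroid genes of the fixed list were 2.58% of all counts in the NC spleen and 22.3% in the PHZ spleen.

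Per cell, the ratio was 0.521 for Kdr, 0.891 for Tie1 and 0.348 for Clec14a, beside a median log2 ratio of -0.11 over all genes, and the total without the 10 erythroid genes gave 0.517, 0.883 and 0.344. Per mm² of tissue it was 0.301, 0.515 and 0.201, where the median log2 ratio was -0.90 and 65% of all genes were called lower, Tie1 among them.

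Within each spleen the genes varied from place to place. Over squares of 500 µm with at least 500 cells, Kdr lay between 981 and 3310 CPM in 23 squares of the NC spleen and between 365 and 1142 CPM in 37 squares of the PHZ spleen. Tie1 lay between 619 and 2047 CPM and between 379 and 1847 CPM. Clec14a lay between 386 and 817 CPM and between 49.5 and 345 CPM. The ranges overlapped for Kdr and Tie1 and did not overlap for Clec14a. Squares of 1 section are not replicates.

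**Figure D4:**
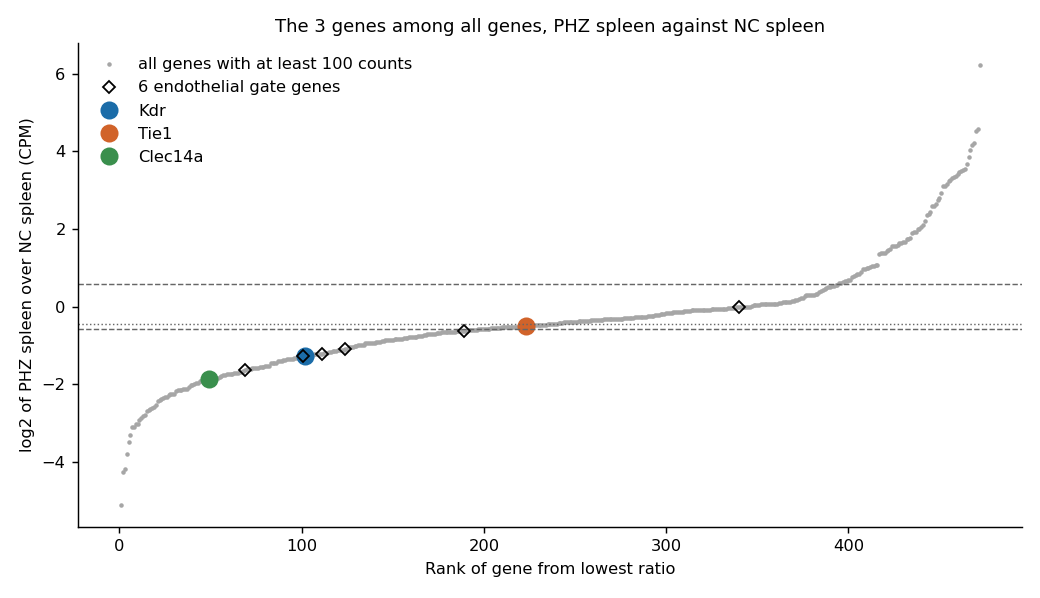
log2 ratio of PHZ spleen over NC spleen on the CPM scale for all 472 genes with at least 100 counts, ordered by rank, with Kdr, Tie1, Clec14a and the 6 genes of the endothelial gate marked. Dashed lines stand at 1.5-fold and the dotted line at the median gene (-0.45): Clec14a (-1.86) and Kdr (-1.28) lie below the lower dashed line, and Tie1 (-0.51) lies between it and the median.

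Other endothelial genes did not move as one group. Of the 6 gate genes, 5 were called lower by CPM and 4 per cell, with ratios by CPM of 0.323 for Calcrl, 0.412 for Sox17, 0.431 for Plvap, 0.466 for Cav1 and 0.651 for Tmem100. Gpihbp1, the gene nearest to the 3 in its pattern over cells, had 856 CPM in the NC spleen and 846 CPM in the PHZ spleen, a ratio of 0.989 (0.961 to 1.02). Of the 11 genes of the wider endothelial list on the panel, which includes the gate genes, 8 were called lower and 2 higher by CPM, and 6 lower and 2 higher per cell. The 2 higher were Eng, a coreceptor for TGF-β ligands (1.52), and Vwf, the von Willebrand factor of endothelium and platelets (2.06). The median log2 ratio was -1.16 over the gate genes and -1.10 over the wider list, beside -1.28 over the 3 genes.

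The sinusoidal list ran in both directions. Dnase1l3, a secreted nuclease (0.186), Oit3 (0.302) and Mmrn1 (0.449) were called lower, and Lyve1, the hyaluronan receptor (1.62), was called higher. Of the 13 genes of the VEGF and angiopoietin pathway, the smaller panel held 2. Vegfa, the ligand of Kdr, went from 2809 to 1945 CPM, a ratio of 0.692 that missed the 1.5-fold rule. Angpt2, an angiopoietin that acts through Tek, went from 443 to 247 CPM, a ratio of 0.558 that was called lower by CPM. Per cell its ratio was 0.705, which missed the rule. Cd93, the relative of Clec14a on this panel, went the other way, from 1957 to 2838 CPM, a ratio of 1.45 by CPM and 1.83 per cell, where it was called higher.

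Markers of other cell types moved with the comparison. All 4 T cell genes were called lower, with a median log2 ratio of -2.70, all 10 erythroid genes higher, with 3.42, and 4 of 7 neutrophil genes higher. Both megakaryocyte genes missed the rule, with a median of -0.28 by CPM and 0.06 per cell. Of 7 stromal genes, 2 were called lower and 1 higher by CPM, and 2 lower and 3 higher per cell. Of the 3 C1q genes, 1 was called lower by CPM and 0 per cell. Outside the lists, the fat-linked genes Car3, Pck1 and Retn had log2 ratios of -5.11, -4.17 and -3.78 by CPM, so the 2 sections may also differ in fat tissue. The part of these cell types and of fat tissue in the ratios of Kdr, Tie1 and Clec14a was not tested.

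In cells of the endothelial gate the 3 genes did not keep 1 direction. Kdr went from 0.871 to 0.574 counts per gate cell, a ratio of 0.659 (0.637 to 0.683), and Clec14a from 0.245 to 0.119, a ratio of 0.484 (0.449 to 0.521). Tie1 went from 0.760 to 0.926 counts per gate cell, a ratio of 1.22 (1.18 to 1.26). Gate cells were deeper in the PHZ spleen, and by CPM within the gate the ratios were 0.502, 0.369 and 0.928 (0.901 to 0.957), so the direction of Tie1 turned with the scale. Per gate cell, 33.4% of 356 genes were called lower and 32.3% higher, and by CPM within the gate 44.9% and 25.3%.

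Gate cells were sparser in the PHZ spleen, at 1056 per mm² against 3074, and so were cells of any kind, at 13406 against 23186. The genes that define the gate also differed per gate cell. Plvap went from 2.05 to 1.59 counts per gate cell and Calcrl from 1.73 to 1.11, while Gpihbp1 went from 0.554 to 1.06. The part of this change in the values within the gate was not tested.

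Co-detection in the spleens was also read from Tie1-positive cells. Among Tie1-positive cells thinned to even depth, Kdr was found in 32.2% (30.8 to 33.6%) in the NC spleen and 20.9% (19.4 to 22.4%) in the PHZ spleen, and Clec14a in 11.9% and 4.92%. Tie1-negative cells held fewer Kdr-positive cells in the PHZ spleen as well, 2.32% against 4.35%, so that the ratio of positive to negative cells was 8.98 in the PHZ and 7.39 in the NC spleen. Among Kdr-positive cells Tie1 was found in 27.5% (26.3 to 28.7%) and 26.3% (24.5 to 28.1%), intervals that overlapped.

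Where in the spleen the genes lay was followed in quintiles of 50 µm squares, ordered by the summed counts per cell of a context list. Both the list and the 3 genes were read as raw counts per cell, without thinning, in all sections. The part of depth and size of cells in these values was not tested. In the NC spleen all 3 genes were sparse where T cell genes were dense. From the lowest to the highest quintile by T cell genes, Kdr went from 23.0 to 5.63 counts per 100 cells, Tie1 from 17.8 to 3.98 and Clec14a from 5.85 to 2.80. All 3 were denser where erythroid and C1q macrophage genes were dense. From the lowest to the highest quintile the ratio was 3.24, 2.49 and 1.78 for Kdr, Tie1 and Clec14a by erythroid genes and 3.84, 3.32 and 2.76 by C1q genes.

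In the PHZ spleen Clec14a parted from the other 2 genes. By T cell genes, Kdr went from 9.99 to 5.48 and Tie1 from 13.6 to 6.99 counts per 100 cells, but Clec14a from 1.13 to 2.41, a ratio of 2.13 (1.80 to 2.53). By erythroid genes Clec14a went from 2.83 to 0.987 counts per 100 cells, a ratio of 0.349 (0.295 to 0.411), while Kdr had a ratio of 1.33 and Tie1 of 1.03 (0.967 to 1.10). Both had their highest value in quintile 2, 11.4 for Kdr and 18.1 for Tie1, and Kdr lay between 8.00 and 8.80 in quintiles 3 to 5, so that neither rose steadily. By C1q genes all 3 were denser at the top, with ratios of 2.14, 2.21 and 3.57. The top quintile by T cell genes held 5.46 counts of the list per cell in the NC spleen and 1.54 in the PHZ spleen, so the same quintile does not stand for the same tissue. The Clec14a values of 1.13 and 0.987 are as low as the share of the T cell class of this section with Clec14a, given above. The part of background in these Clec14a ratios was not tested.

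At the T cell end, with quintiles matched by rank alone, the spleens were close for Kdr and Clec14a but not for Tie1. In the highest quintile Kdr was 5.63 in the NC and 5.48 in the PHZ spleen, and Clec14a was 2.80 and 2.41 counts per 100 cells. At the other end, in the lowest quintile, Kdr was 23.0 and 9.99 and Clec14a was 5.85 and 1.13. Tie1 was 3.98 and 6.99 in the highest quintile and 17.8 and 13.6 in the lowest. At a like density of T cell genes the spleens were not close. Quintile 3 of the NC spleen held 1.68 counts of the list per cell, near the 1.54 of the highest PHZ quintile. It had 19.8 Kdr, 16.6 Tie1 and 5.64 Clec14a counts per 100 cells, all above that PHZ quintile.

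**Figure D5:**
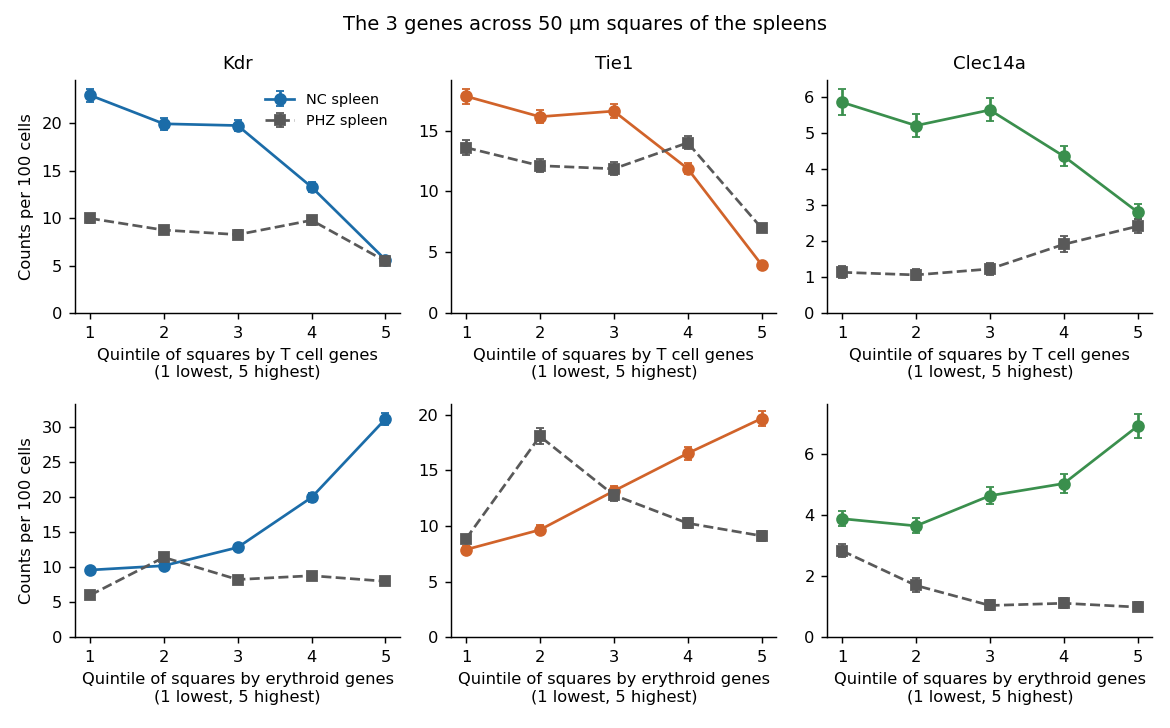
Counts of Kdr, Tie1 and Clec14a per 100 cells in quintiles of 50 µm squares of the NC spleen (colored circles) and PHZ spleen (gray squares), ordered by T cell genes (top) or erythroid genes (bottom), with exact 95% intervals of counting error. In the NC spleen all 3 genes are lowest in the T cell-rich quintile, and in the PHZ spleen Clec14a alone is higher there (2.41) than in the T cell-poor quintile (1.13).

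In the P8 bone marrow the genes were dense in squares rich in muscle or stromal genes, in quintiles 3 and 4 by cartilage genes and in quintile 2 by erythroid genes. From the lowest to the highest quintile by cartilage genes the ratio was 0.569 for Kdr, 0.849 for Tie1 and 0.707 for Clec14a, with higher values in quintiles 3 and 4 than at either end. By skeletal muscle genes it was 1.77, 2.85 and 1.42, and by stromal genes 2.39, 3.63 and 2.61, with Tie1 the highest in both. By erythroid genes it was 2.64 for Kdr, 1.60 for Tie1 and 2.11 for Clec14a, but this was no steady rise. The peak was in quintile 2, at 35.3, 36.2 and 12.9 counts per 100 cells, and the top quintile had 21.2, 13.97 and 8.65. The balance of Tie1 to Kdr differed within the section. The top quintile by muscle genes held 2178 Tie1 and 2124 Kdr counts, and the top quintile by erythroid genes 1714 Tie1 and 2605 Kdr counts. For the 3 genes together, squares of 100 µm moved the ratio from 2.10 to 6.35 by erythroid, from 2.03 to 3.803 by muscle and from 1.26 to 2.43 by neutrophil genes, so the sizes there depend on the square.

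The remaining sections differed in their gradients. In the E14.5 fetal liver the ratio lay between 0.754 (0.728 to 0.781, Tie1 by erythroid genes) and 1.20 (1.15 to 1.25, Clec14a by hepatocyte genes), and these intervals did not include 1. By C1q genes it was 1.05, 0.998 and 1.03 for Kdr, Tie1 and Clec14a. In the 89-week bone marrow it was 2.35 (1.98 to 2.80) for Kdr, 1.37 (1.08 to 1.73) for Tie1 and 1.85 (1.45 to 2.37) for Clec14a by erythroid genes, and squares of 100 µm gave 2.27, 1.53 and 1.95. By neutrophil genes it was 0.633 (0.533 to 0.750), 1.05 (0.833 to 1.32) and 0.612 (0.477 to 0.782). With squares of 100 µm the ratio of Kdr by neutrophil genes was 0.915 (0.774 to 1.08), which included 1, and that of Clec14a 0.737 (0.580 to 0.935). In the E13.5 fetal liver the intervals of all 3 genes by erythroid genes included 1 with squares of 50 µm. Squares of 100 µm gave 1.48 (1.10 to 1.99) for Kdr and 1.64 (1.20 to 2.25) for Clec14a, which did not include 1, and 0.819 (0.533 to 1.23) for Tie1.

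The transcripts of the 3 genes lay over the nucleus less often than those of the median gene, but not always less often than all transcripts pooled. In the E14.5 fetal liver 51.1% of Kdr, 51.8% of Tie1 and 49.98% of Clec14a transcripts in cells lay over the nucleus, against 62.3% for the median gene, and in the P8 bone marrow 46.0%, 45.5% and 45.6% against 57.2%. In the NC spleen it was 57.0%, 60.7% and 62.1% against 65.5%, and in the PHZ spleen 44.0%, 44.9% and 52.1% against 60.7%. Over all transcripts in cells it was 58.9% for the NC and 51.0% for the PHZ spleen, 48.9% for P8 bone marrow and 57.2% at E14.5, so that Tie1 and Clec14a in the NC spleen lay above it, while the interval of Clec14a in the PHZ spleen (49.6 to 54.7%) included it. Cells of these sections are expanded nuclei and differed in median area, from 35.6 µm² in the NC to 53.0 µm² in the PHZ spleen, and the part of cell area in these shares was not tested.

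Beyond Vegfa, Angpt2 and Cd93, the ligands, receptors and relatives of the 3 genes could be followed on the larger panel alone, which held 12 of the 13 pathway genes and all 3 lectin relatives. Of the 12, 8 were lower in the 89-week bone marrow than in the E13.5 fetal liver and 2 higher by intervals that did not overlap, beside the 31.7% and 29.2% of all genes on that panel given above. The remaining 2, Vegfc (25.997 and 23.9 CPM) and Angpt2 (7.94 and 7.35 CPM, from 11 and 96 counts), had overlapping intervals. Among receptors, Tek, the partner of Tie1, had 162 CPM in the E13.5 fetal liver and 67.1 CPM in the 89-week bone marrow, Flt1, a VEGF receptor that can act as a decoy, 49.8 and 22.3 CPM, Flt4 194 and 131 CPM, and the VEGF coreceptor Nrp1 422 and 171 CPM. These genes were therefore lower in the 89-week bone marrow, as were Kdr, Tie1 and Clec14a. Nrp2, the other coreceptor, had 48.4 and 81.8 CPM and went the other way.

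Among ligands, Vegfa had 147 CPM in the E13.5 fetal liver and 90.1 CPM in the 89-week bone marrow, Vegfb 144 and 103 CPM, Vegfd 60.7 and 8.66 CPM, and Pgf, a ligand of Flt1, 24.6 (17.0 to 34.3) and 14.1 (12.1 to 16.3) CPM. Angpt1, the activating ligand of Tek, had 30.3 and 77.6 CPM, the reverse order. Of the relatives of Clec14a, Cd93 had 134 and 181 CPM and Thbd, thrombomodulin, 8.67 (4.48 to 15.1, from 12 counts) and 49.6 CPM, while the stromal gene Cd248 had 166 and 9.73 CPM. The sections differ in organ, age, depth and preparation, which cannot be told apart here. By the methods, the adult femur was fixed in paraformaldehyde, then frozen in gelatin and cryosectioned before its marrow was embedded in paraffin. The other fresh samples were put straight into formalin.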

How the data were processed

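Kdr, Tie1 and Clec14a were followed in 6 Xenium sections, 1 per condition, grouped by the tissue labels. The 3 genes, the gene lists and the comparisons were chosen with earlier results of these data known. The authors deposited raw counts per gene and cell without normalization, as written by Xenium Onboard Analysis per the file headers (version 1.7.1.0 for the smaller and 3.1.0.4 for the larger panel), whereas the methods name Space Ranger. Cells were expanded nuclei on the smaller panel. The deposited transcript tables of the 4 sections on the smaller panel give a quality score for each transcript, and rebuilding the counts at a score of at least 20 gave 0 differences from the deposited counts. The deposited positions and areas of cells are in micrometers. No column was left unassigned (0 columns).

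Counts were summed over all cells of a section and divided by all gene transcripts (CPM), by cells or by the area of 50 µm squares that held a cell. Sections held between 1384795 and 20952143 gene transcripts, which sets the precision of the values. A cell passed a cell type gate with at least 3 counts of its list, and the endothelial gate with at least 2 different genes. Thinning drew 50 transcripts per cell with seed 1. Squares needed at least 10 cells. The ratio of 2 counts was given with an exact conditional interval at 95%. Named genes were the 3 genes, the genes of the VEGF and angiopoietin, lectin and endothelial gate lists, and the 3 genes of the highest likeness among those in at least 0.5% of thinned cells. Genes of the other lists were given as counts of calls, except that Eng, Vwf, the sinusoidal genes and Afp, and Gpihbp1 among neighboring transcripts, were named after their values were seen. Car3, Pck1 and Retn, which are on no list, were also named after their values were seen. Gates and lists may share cells and genes, and doublets were not called. On the larger panel, genes with a ratio of 0 in either section were left unranked. Alternatives covered the scale, the cells, the quality score, the fold, the radius and the square. CPM within the endothelial gate and counts after thinning, both for the spleens, were added after seeing the data. The scripts, in Python 3.11.15 with numpy 2.4.6, scipy 1.17.1, pandas 2.3.3 and matplotlib 3.10.9, were tested on simulated data. Promoter sequences and gene spans are from RefSeq, GRCm38.p6. Visium and human samples were not analysed here.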

Additional observations from a re-analysis of the deposited data

How the results depend on the processing

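No paired analysis was possible because each condition had 1 section. Under 7 of the alternatives for the spleens the ratio of PHZ over NC moved past its interval for Kdr and Tie1. Kdr, Tie1 and Clec14a had ratios of 0.521, 0.891 and 0.348 per cell, 0.301, 0.515 and 0.201 per mm², 0.517, 0.883 and 0.344 without the erythroid genes, 0.659, 1.22 and 0.484 per endothelial gate cell, 0.502, 0.928 and 0.369 by CPM within that gate and 0.470, 0.797 and 0.313 per thinned cell. At a quality score of at least 30, Kdr had 0.491 and Tie1 0.651. Tie1 was the gene whose direction turned, per gate cell. The count of 2 genes called lower became 3 per mm² and at the score of 30 and was 2 under the other 9 alternatives. Of all genes, 38.4% were called lower at the score of 30, 35.9% per thinned cell, 27.5% at a fold of 2 and 48.1% with at least 1000 counts. The share of cells with any of the 3 genes was 12.3%, 4.27%, 12.4%, 1.10%, 10.1% and 6.46% after thinning, 9.34%, 3.63%, 6.91%, 0.159%, 5.03% and 3.23% at a minimum of 2 counts (E14.5 and E13.5 fetal liver, P8 and 89-week bone marrow, NC and PHZ spleen). Over the nucleus alone it was 14.8%, 10.98%, 9.15% and 5.39% in the E14.5 fetal liver, the P8 bone marrow, the NC and the PHZ spleen, and with at least 5 genes per cell it was 20.3% in the P8 bone marrow. Kdr-positive cells held another of the genes in 46.9%, 19.0%, 34.7%, 7.68%, 33.6% and 27.9% after thinning (same 6 sections) and in 51.7%, 43.8%, 45.8% and 38.9% over the nucleus. Against the total of the 233 genes on both panels, the 3 genes together had 10255, 12365, 8026, 2278, 6593 and 3570 CPM in those 6 sections. These values are not compared between panels, as the number of probe sets per gene differs. A transcript of a different one of the 3 genes lay within 2 µm for 58.3%, 37.5%, 41.8% and 20.9% and within 10 µm for 93.3%, 85.2%, 89.8% and 69.5% of their transcripts. Squares of 100 µm gave top-to-bottom ratios, for the 3 genes together, of 0.877 (erythroid) and 1.12 (C1q) in the E14.5 fetal liver, 1.34 (1.11 to 1.62, erythroid) in the E13.5 fetal liver, 6.35 (erythroid), 3.803 (muscle), 2.43 (neutrophil) and 2.10 (stroma) in the P8 bone marrow, 0.933 (0.830 to 1.05, neutrophil, an interval that includes 1) in the 89-week bone marrow, 0.301 (T cell), 3.03 (erythroid) and 3.61 (C1q) in the NC spleen, and 0.754 (T cell) and 1.10 (erythroid) in the PHZ spleen. The causes were not tested. With these squares no ratio of the 3 genes together crossed 1. Of single genes Tie1 did, from 0.974 to 1.96 by neutrophil genes in the P8 bone marrow and from 0.998 to 1.09 by C1q genes in the E14.5 fetal liver. Fewer transcripts per cell lower every share by construction, and co-detection of Kdr and Tie1 rests on 12 thinned cells in the 89-week bone marrow, which has the lowest depth per cell, and on 9 in the E13.5 fetal liver, which has the fewest cells.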
